A study of Mus musculus with 18 samples.

Results

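Medulloblastoma was compared with the hyperplasia that precedes it by where in the genome NFIA and NFIB, transcription factors of the nuclear factor I (NFI) family, were found. The comparison took in 12 of the 18 libraries of the study, 6 from tumors and 6 from hyperplasia, chosen by the cell type in the sample labels. The protocol calls the hyperplasia cells PNCs, and they came from cerebella at postnatal day 28. The tumor cells came from adult cerebella, so that age changed together with stage. Granule neuron progenitors (GNPs) of postnatal day 7, with 6 libraries, serve as a description of the normal state. All 3 kinds of cells were isolated on a Percoll gradient, which separates cells by density. The design text names a genetically engineered mouse model. The driver allele, any Cre line and the strain are not given in the sources used here, so whether the groups differ in genotype is unknown. The cell line that the design text also names was not analysed here.

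NFI proteins bind DNA as dimers at a palindrome, TTGGC and GCCAA with 5 bases of any kind between them, and more weakly at the half-site TTGGC. In the cerebellum they are known for promoting the maturation of granule neurons, which includes migration, axon growth and the switch to late-expressed synaptic genes. Granule neuron progenitors divide under Sonic hedgehog, and medulloblastoma can arise when this division does not stop, with hyperplasia on the cerebellar surface as an intermediate state. CUT&Tag tethers a transposase to an antibody on the protein and sequences the DNA cut nearby, so that a peak marks cut DNA near the protein and its summit is the peak's highest base.

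Both targets were mapped in every preparation, with 3 preparations a stage and 1 library a target. The deposited name of the data carried the other target in 4 of the 12 libraries, so that the libraries of a preparation were pooled and the targets were not compared. The labels do not tell whether preparations are separate animals, and the p-values therefore reflect preparation-to-preparation spread that may be technical. No title date was shared between hyperplasia and tumor, so that date and stage cannot be told apart and no within-date value exists. GNP and hyperplasia preparations do share their title dates, so a GNP value near hyperplasia is no reference independent of date. A deposited list held between 49948 and 385466 summits. List length overlapped between the stages, with an exact two-sided permutation p of 0.6. Read depth is unknown, so the 30000 highest-scoring summits on the 19 autosomes of each library were compared, called top summits here. In the second NFIA library of hyperplasia 20.4% of the top summits were tied at the lowest score kept, and in that library 40.5% of the regions described below held a top summit, against 57.9% to 59.0% in the other 5 hyperplasia libraries. Region counts, the gene-end share of regions and the number of called genes are given with and without it. Summit shares and region sharing were not computed again without it.

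Regions were made by widening every top summit by 100 bp on each side, merging the overlaps and dropping those with summits of fewer than 3 libraries, all stages counted, which left 42045. A region is called gained where at least 5 of 6 tumor libraries and at most 1 of 6 hyperplasia libraries had a top summit in it, and lost in the opposite case. By this count 511 regions were gained (1.22% of all) and 449 were lost (1.07%). The values that make a region gained or lost chose it, so they are given as a description with no test. Few gained regions lay at gene starts, while lost regions lay there at about the share of all regions. The upstream sequences of 7 protein-coding genes, 2 with a gained and 5 with a lost region at the start, are shown to show what these starts look like. None of the 7 had a top summit in the other stage. They were picked after their values were seen. Of the 250 bases before each start, printing stops where an annotated gene span begins. This leaves 130 bases at Khdrbs2, 217 at Psmb6 and 235 at Ckap5. The stretches of these 3 genes therefore end short of the start from which summit positions are counted. Sequences are from RefSeq, build GRCm38.p6, written 5′ to 3′ toward the start of the gene. Capitals mark the NFI half-site, TTGGC or its reverse complement GCCAA.
Tlx3, chr11:33203589-33203838, minus strand: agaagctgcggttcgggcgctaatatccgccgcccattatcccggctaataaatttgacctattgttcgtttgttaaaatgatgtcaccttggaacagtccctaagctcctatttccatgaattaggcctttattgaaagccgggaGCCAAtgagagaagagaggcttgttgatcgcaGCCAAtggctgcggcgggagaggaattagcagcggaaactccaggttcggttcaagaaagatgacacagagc
Rtn2, chr7:19282374-19282623, plus strand: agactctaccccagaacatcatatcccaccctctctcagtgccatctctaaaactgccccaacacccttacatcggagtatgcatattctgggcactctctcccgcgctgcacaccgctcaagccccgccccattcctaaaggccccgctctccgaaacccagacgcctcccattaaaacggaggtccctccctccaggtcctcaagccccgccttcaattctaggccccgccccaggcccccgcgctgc
Khdrbs2, chr1:32172472-32172601, plus strand: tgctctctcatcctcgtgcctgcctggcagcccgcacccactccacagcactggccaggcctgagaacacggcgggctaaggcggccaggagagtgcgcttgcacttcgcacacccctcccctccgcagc
Psmb6, chr11:70525107-70525323, plus strand: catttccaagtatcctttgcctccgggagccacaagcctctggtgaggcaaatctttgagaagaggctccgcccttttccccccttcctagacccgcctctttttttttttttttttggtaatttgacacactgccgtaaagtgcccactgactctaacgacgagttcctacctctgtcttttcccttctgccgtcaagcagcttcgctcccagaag
Gldc, chr19:30175442-30175691, minus strand: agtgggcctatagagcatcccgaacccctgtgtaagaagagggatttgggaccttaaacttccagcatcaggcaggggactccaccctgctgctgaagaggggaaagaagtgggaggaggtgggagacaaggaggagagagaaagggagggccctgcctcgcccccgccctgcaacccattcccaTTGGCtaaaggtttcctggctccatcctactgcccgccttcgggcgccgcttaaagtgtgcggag
Twsg1, chr17:65951188-65951437, minus strand: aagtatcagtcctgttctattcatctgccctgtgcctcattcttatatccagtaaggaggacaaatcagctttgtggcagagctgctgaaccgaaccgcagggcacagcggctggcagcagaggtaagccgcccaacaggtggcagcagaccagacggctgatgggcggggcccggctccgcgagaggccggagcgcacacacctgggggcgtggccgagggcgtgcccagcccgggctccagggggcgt
Ckap5, chr2:91526512-91526746, plus strand: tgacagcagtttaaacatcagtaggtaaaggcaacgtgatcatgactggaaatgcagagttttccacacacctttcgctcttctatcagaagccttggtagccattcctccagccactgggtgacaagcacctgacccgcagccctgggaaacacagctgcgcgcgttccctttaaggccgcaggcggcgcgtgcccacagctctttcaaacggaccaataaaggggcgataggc

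Tlx3 encodes a homeobox factor of excitatory neurons of the hindbrain and spinal cord. The region at its start held a top summit in 5 tumor libraries, in none of hyperplasia and in 5 GNP libraries. The 5 tumor summits lay at -24, -22, 2, 30 and 65 bases from the start. All were nearer to the gene than both GCCAA half-sites shown. The promoter window, defined below, runs on past the start and held 3 half-sites, 2 of them in the bases shown. The remaining half-site lies at or after the start, and its distance to the summits was not measured. Rtn2 encodes a reticulon of the endoplasmic reticulum. Its region was hit in 5 tumor, 0 hyperplasia and 3 GNP libraries, with tumor summits from -197 to 378 bases, and the printed stretch holds no half-site. The full deposited lists did hold a summit in 2 hyperplasia libraries at the Tlx3 region and in 4 at the Rtn2 region.

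Khdrbs2 encodes an RNA-binding protein that regulates splicing in neurons. The region at its start was hit in all 6 hyperplasia and all 6 GNP libraries and in no tumor library. Its hyperplasia summits, from -90 to 249 bases, all lay past the printed stretch. Psmb6, a catalytic subunit of the proteasome, had summits in 6 hyperplasia, 4 GNP and 0 tumor libraries, and 5 of its 6 hyperplasia summits lay between -107 and -45 bases. At Gldc, which encodes glycine decarboxylase of the glycine cleavage system, 5 hyperplasia, 6 GNP and 0 tumor libraries had a summit. A TTGGC stands in the printed bases. Of the 5 hyperplasia summits 1 lay before the start, at -22 bases. The others lay at 56, 57, 58 and 118, past the printed bases. Twsg1 encodes a secreted modulator of BMP signalling. Its start region was hit in 5 hyperplasia and 5 GNP libraries and in no tumor library. The same numbers held at Ckap5, whose product promotes microtubule growth. Absence from the top summits was not absence from the lists: of the 6 tumor libraries, the full deposited lists held a summit in 5 at Khdrbs2, Psmb6 and Gldc and in 4 at Twsg1 and Ckap5.

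The RefSeq table gave 31396 autosomal promoter windows, each from 250 bases before to 50 after a start, of which 9877 overlapped a region. Gained regions overlapped 25 of these 9877 windows (0.253%) and lost regions 106 (1.07%). A half-site, on either strand, stood in 12 of the 25 windows with a gained region and in 59 of the 106 with a lost one. This is 48.0% and 55.7%, beside 54.3% of all windows with a region and 46.7% of all windows. The full palindrome was in 0 windows of either set and in 12 of all 31396. Windows with a lost region held a median of 22 CpG dinucleotides, as did all windows with a region, and those with a gained region held 17. A match is a description of letters and not a binding site.

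The location of whole regions gave the same split. Of the 511 gained regions 38 (7.44%) were found 1 kb or less from either end of a gene, against 92 of the 449 lost ones (20.5%) and 22.6% of all regions. Off chromosome 6 the shares were 7.41% and 20.6%. Gained regions lay further inside genes in 57.1% of cases, lost regions in 41.2% and all regions in 42.0%. In every setting tried the gained share at gene ends was below the lost share. It ran from 3.61% to 11.7% for gained and from 9.49% to 38.0% for lost regions, with 8.0% and 21.4% when the second NFIA library of hyperplasia was left out.

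**Figure D1:**
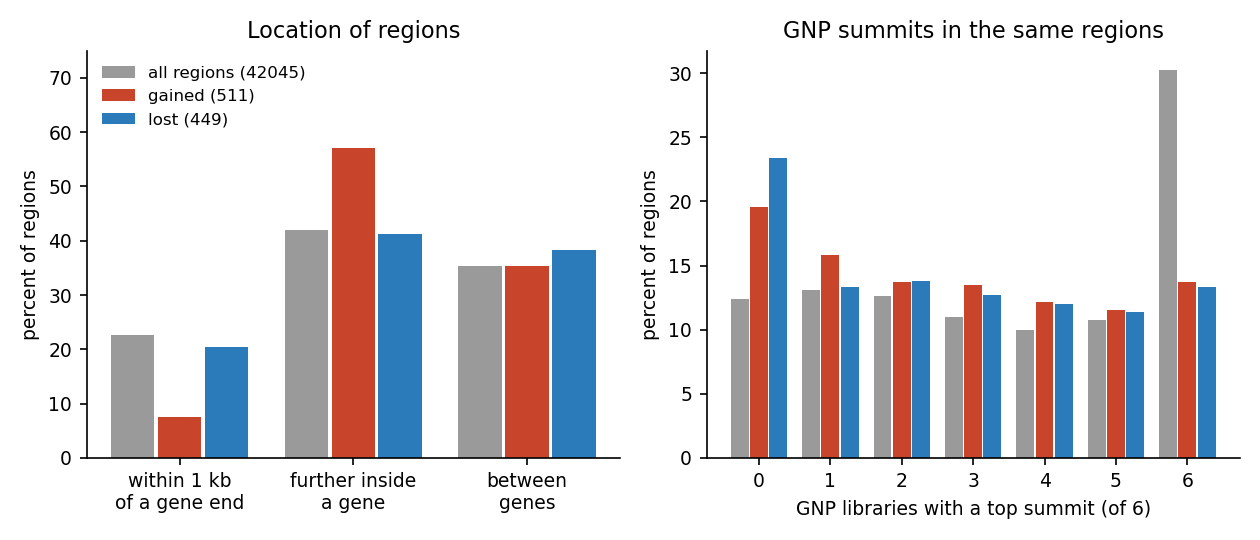
Left, percent of all, gained and lost regions within 1 kb of either end of a gene, further inside a gene or between genes. Right, percent of the same regions by the number of GNP libraries, of 6, with a top summit in them. Gained regions are rare at gene ends (7.44%), and both called sets have fewer regions hit by all 6 GNP libraries than the 30.2% of all regions.

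The same classes over all top summits moved less. Gene ends held 25.3%, 23.0% and 27.0% of the top summits of the 3 hyperplasia preparations and 20.6%, 23.7% and 24.6% in tumors, and the ranges overlapped (exact two-sided permutation p = 0.4). Only hyperplasia preparation 2 lay within the tumor range. Its NFIA library, the one with many tied scores, had 18.2% at gene ends and its NFIB library 27.75%. The test was not run without that NFIA library. Inside genes the shares were 41.2%, 40.6% and 39.2% in hyperplasia and 43.1%, 42.0% and 41.7% in tumors, every tumor preparation above every hyperplasia one. The exact permutation p was 0.1, two-sided, the smallest that 3 preparations against 3 can give, and 0.3 after Benjamini-Hochberg adjustment over the 3 classes. Without chromosome 6 the means were 40.3% and 42.1%, again with p = 0.1 by the exact test. When all deposited summits were used, the difference in the inside-gene share, tumor minus hyperplasia, was -0.73 percentage points.

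Chromosome 6 set the tumor libraries apart. It held 5.34%, 5.47% and 5.32% of the top summits in the hyperplasia preparations and 7.12%, 7.18% and 6.89% in the tumor ones. The single libraries ran from 5.29% to 5.53% in hyperplasia and from 6.83% to 7.44% in tumors, with no overlap. The GNP mean was 5.24%, near hyperplasia, whose title dates GNPs share. The tumor share was 1.31 ± 0.03 times that of hyperplasia (SD over 3 tumor preparations), while the ratios of the other 18 autosomes lay between 0.922 and 1.02. The tumor and hyperplasia preparations of 9 of the 19 chromosomes (47.4%) did not overlap, and each of the 9 had an exact p of 0.1 (0.211 after Benjamini-Hochberg adjustment). Because the shares of a library add up to a fixed total, a larger share on chromosome 6 lowers the others. With chromosome 6 taken out of the total, 4 of 18 chromosomes had no overlap and the ratios ran from 0.939, at chromosome 19, to 1.04.

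**Figure D2:**
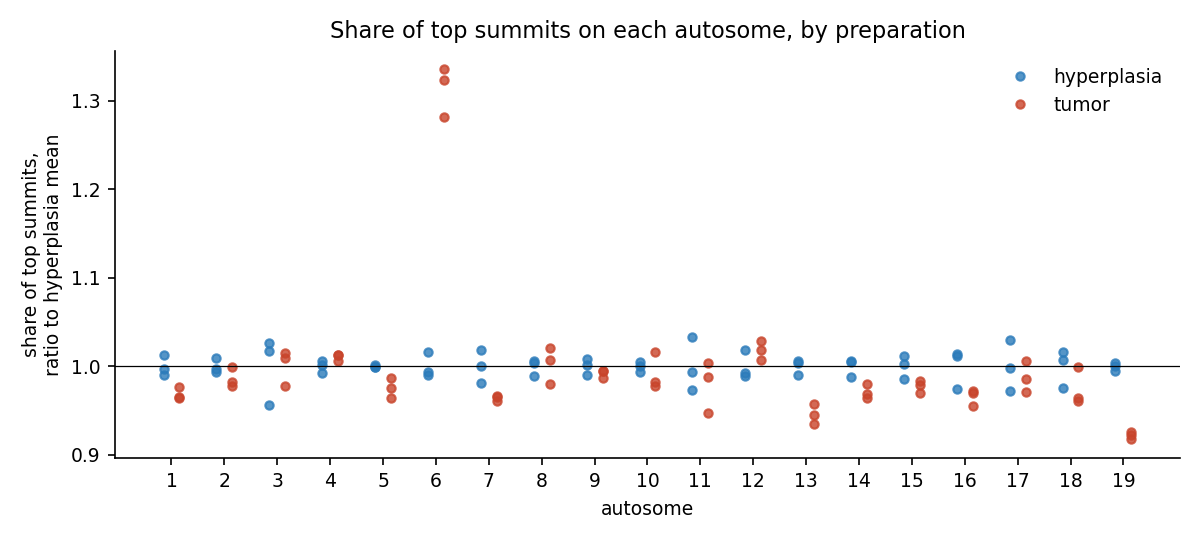
Share of a preparation's top summits on each autosome, divided by the hyperplasia mean of that autosome; each point is 1 of 3 preparations a stage. The 3 tumor points of chromosome 6 stand apart, near 1.31, and the ratios of tumor means to hyperplasia means on the other autosomes lie between 0.922 and 1.02.

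The excess ran along the whole chromosome. In each of 15 segments of 10 Mb, every tumor preparation had more top summits than every hyperplasia preparation, and the ratio of the means ran from 1.21 to 1.45. Of the 489 tested genes of chromosome 6, 372 had a higher value in tumors and 87 a lower one, and the median log2 difference was 0.32. The medians of the other 18 autosomes lay between -0.10 and 0.03. Tumor preparations were above hyperplasia without overlap at 95 genes of chromosome 6 (19.4%) and below at 2, beside 4.45% and 3.73% of all tested genes. Chromosome 6 held 79 of the gained regions (3.19% of its 2478) and 8 of the lost ones (0.323%). Elsewhere 432 of 39567 regions were gained (1.09%) and 441 were lost (1.11%), nearly equal in number. That balance did not hold in other settings. Off chromosome 6 there were 543 gained and 949 lost regions with all summits. Leaving out libraries lowers the number asked for in their stage, so that the call is looser on that side. Without the second NFIA library of hyperplasia 509 regions were gained and 918 lost. The numbers were 1329 and 807 without tumor preparation 1 and 746 and 1495 without hyperplasia preparation 2. Each left-out tumor preparation gave more gained than lost regions, and each left-out hyperplasia preparation more lost than gained ones. The number of chromosome copies was not measured here, and its part in these values was not tested.

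A stricter count asked for a top summit in all 6 libraries of a stage and in none of the other. It held 43 gained and 27 lost regions, of which 33 and 27 lay off chromosome 6. The best-supported of the gained regions, by the rank of the weakest of the 6 summits, lay inside Pip4k2b (chr11:97723499-97723882), which encodes a lipid kinase, where the 6 tumor summits ranked from 4589 to 12810 and all 6 GNP libraries also had a summit. The region at the gene end of Ntn3 (chr17:24208701-24209429), which encodes a netrin that guides axons, ranked from 1733 to 16370 in tumors and was hit in 1 GNP library. Inside Ddx31 (chr2:28882918-28883275), an RNA helicase gene, 2 GNP libraries had a summit. On chromosome 6 the region inside Cntnap2 (chr6:45204906-45205381), a neurexin-related adhesion gene, ranked from 6198 to 23446 and was hit in 1 GNP library. A region inside Fbln2 (chr6:91213437-91213896), which encodes an extracellular matrix protein, had no summit at all in the full deposited lists of the 6 hyperplasia libraries.

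Among the regions lost by the stricter count, the one inside Dicer1 (chr12:104719005-104719414), the enzyme that cuts microRNA precursors, had the best ranks, from 1782 to 6637 in the 6 hyperplasia libraries. It had a top summit in 0 GNP libraries, as had the region inside Ppara (chr15:85762950-85763261), a nuclear receptor of lipid metabolism, with ranks from 8585 to 18132. In both, 2 of the 6 tumor libraries held a summit further down their lists. A pair of lost regions lay over 100 kb from any protein-coding gene, at chr1:101122430-101122809 and chr2:98354194-98354621. They were hit in 5 and 6 GNP libraries, and no tumor list held a summit in either.

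Most gained and lost regions were weaker rather than empty in the other stage. Over the 511 gained regions the median was 4 of 6 hyperplasia libraries with a deposited summit at any score, and 2 regions had none. Over the 449 lost regions the median was 4 of 6 tumor libraries, and 11 regions had none. In the hyperplasia libraries between 37 and 99 gained regions held a top summit, and in the tumor libraries between 411 and 480. Between 36 and 72 lost regions held one in tumors, and in hyperplasia between 386 and 428 in 5 libraries and 287 in the second NFIA library. Without that library, which also lowers the number of hyperplasia libraries asked for, 600 regions were gained and 935 lost. Leaving out each preparation in turn lowers the number of libraries asked for to 3 of 4 in that stage, and gave 884 to 1521 gained and 825 to 1531 lost regions.

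**Figure D3:**
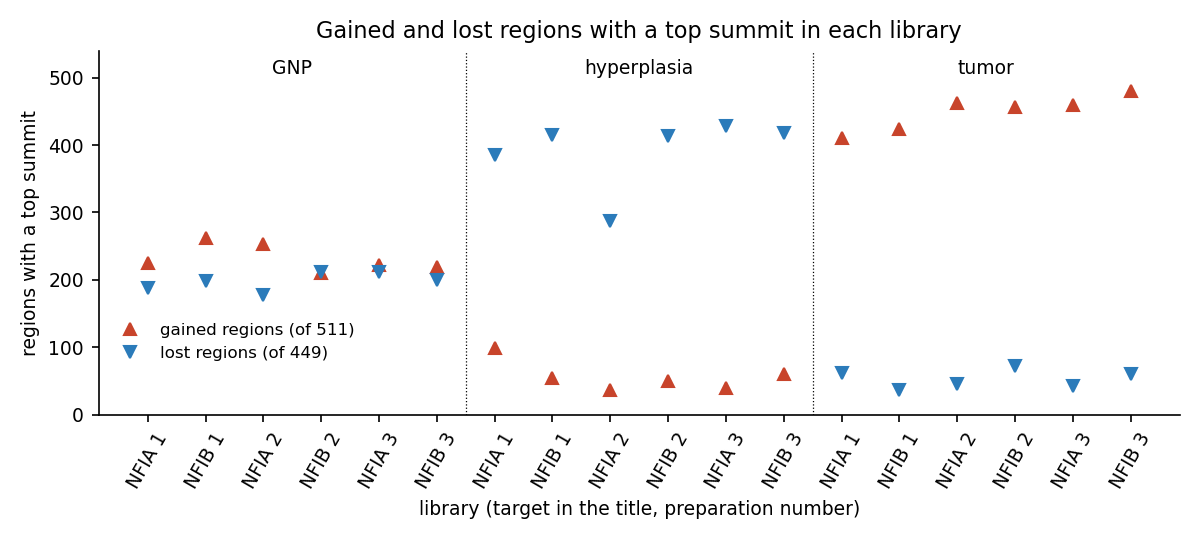
Number of the 511 gained and 449 lost regions with a top summit in each of the 18 libraries. GNP libraries, which were not used to call them, lie between the other stages, with 210 to 262 gained and 178 to 211 lost regions. Choosing regions by the other 2 stages makes such a middle level likely.

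GNP libraries took no part in the call beyond the minimum of 3 libraries per region. They had a top summit in 210 to 262 of the gained and 178 to 211 of the lost regions, between the levels of the other stages for both sets. The regions were chosen as high in 1 stage and low in the other, which makes a middle level likely for any libraries outside the call. That middle level is therefore no result about GNPs. At least 5 of 6 GNP libraries hit 129 gained regions (25.2%) and 111 lost ones (24.7%), beside 41% of all regions, which include those hit in every library. At most 1 GNP library hit 181 gained (35.4%) and 165 lost regions (36.7%), beside 25.5% of all. By these counts the gained and the lost set differed little from each other in their GNP state. The shares hit by at least 5 GNP libraries moved with the stage from which a preparation was left out. Leaving out any 1 tumor preparation gave 17.1% to 18.5% for gained and 31.6% to 39.5% for lost regions. Leaving out any 1 hyperplasia preparation gave 29.5% to 33.3% and 16.1% to 17.1%. Each such step also loosens the call in that stage, so these shifts cannot be assigned to the preparations themselves. Of the 27 strictly lost regions 44.4% were hit by at least 5 GNP libraries, and of the 43 strictly gained ones 25.6%.

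Libraries shared more regions within a stage than across stages. The mean Jaccard index, the regions 2 libraries share over those that either has, was 0.57 for pairs of different preparations within a stage and 0.54 for pairs of a tumor and a hyperplasia library. The difference of 0.03 stood at p = 0.1 by the exact permutation test over preparations, two-sided, the smallest possible, and it was 0.03 also without chromosome 6. All 6 hyperplasia libraries were nearer to hyperplasia and all 6 tumor libraries nearer to tumors, on average.

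For genes, top summits were counted at the nearest protein-coding gene span, up to 100 kb away, and NFIA and NFIB counts were added within a preparation. Tests were made with limma on log2(summits + 0.5) over the 8586 genes averaging 2 or more summits, a scale that makes fold changes of sparsely hit genes look smaller than they are. At a Benjamini-Hochberg adjusted p under 0.05, 9 genes were called (0.105%), 2 higher in tumors (0.0233%) and 7 lower (0.0815%). Fitted without chromosome 6, 3 of 8097 genes were called (0.0371%), Khdrbs2, Sik1 and Sugct. At an unadjusted p under 0.05 limma gave 983 genes (11.4%), 514 higher (5.99%) and 469 lower (5.46%). The calls were fragile. Over 20 random orders of tied scores 0 to 13 genes were called, with a median of 8. With the second NFIA library of hyperplasia replaced by the NFIB library of its preparation, 8 genes were called, 7 of them among the 9. The fit without chromosome 6 then gave 2. Leaving out hyperplasia preparation 2 gave 4 calls, hyperplasia preparation 3 gave 0, tumor preparation 2 gave 1 and tumor preparation 3 gave 4. Of the 9 genes, 0 were among those called with all summits, without hyperplasia preparation 3 or without tumor preparation 2, and 1 was with 15000 summits, with NFIB libraries only or without tumor preparation 3.

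**Figure D4:**
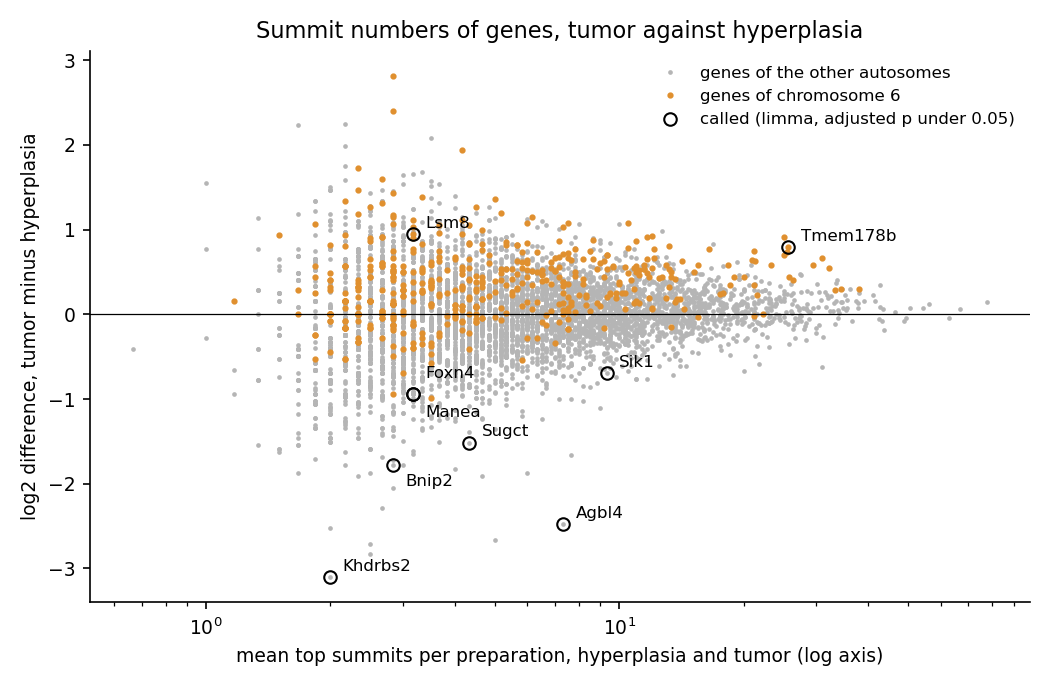
Each point is 1 of 8586 tested genes, by its mean number of top summits per preparation (log axis) and its log2 difference, tumor minus hyperplasia, on the log2(summits + 0.5) scale. Genes of chromosome 6 (orange) lie mostly above 0, with a median of 0.32, and the 9 called genes are ringed; Manea and Foxn4 share 1 point.

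Both genes called higher lie on chromosome 6. Tmem178b (chr6:39871230-40255150), which encodes a transmembrane protein, had 20, 18 and 18 top summits in the hyperplasia preparations, 36, 30 and 32 in tumors and 25, 24 and 25 in GNPs. Every tumor preparation was above every other one, and hyperplasia was lowest. The log2 difference was 0.79 (SE 0.08, adjusted p = 0.0355 by limma), or 0.47 above the median of the chromosome. It was 0.14 with all summits scaled to equal totals and 0.43 with NFIA libraries only, and passed the test in neither. Lsm8 (chr6:18848635-18854052), a subunit of the complex that binds U6 small nuclear RNA, had 2 summits in each GNP and hyperplasia preparation and 5, 4 and 4 in tumors. With summits counted only up to 20 kb from a gene its log2 difference was 0.16, against 0.94, and its gained region lies 51937 bp away from it, so that the difference rests on distant summits. Lsm8 was called with 5 of the 20 orders of ties and in 4 of 18 other settings, Tmem178b with 18 and in 12 of 23.

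Khdrbs2 (chr1:32172602-32705224), whose start is shown above, had 4, 4 and 3 top summits in GNPs, 3, 6 and 3 in hyperplasia and 0 in each tumor preparation. Against a floor of 3 summits over the group, this is at least 4-fold lower in tumors (adjusted p = 0.0231 by limma). In the full lists 5 of 6 tumor libraries did hold summits there, and in counts of every deposited summit, scaled to equal totals, the direction turned, to 0.047. Agbl4 (chr4:110397649-111664324), a cytosolic carboxypeptidase that trims glutamate from tubulin, had 17, 13 and 15 in GNPs, 11, 13 and 14 in hyperplasia and 2, 1 and 3 in tumors. The log2 difference was -2.47 (SE 0.29, adjusted p = 0.0447 by limma). It held 3 of the lost regions, the most of any gene. Sugct (chr13:16857472-17694795), a mitochondrial CoA-transferase, had 8, 6 and 9 in GNPs, 6, 7 and 7 in hyperplasia and 2 in each tumor preparation (log2 difference -1.52, SE 0.15). In these 3 genes the tumors were below both other stages without overlap. In scaled counts of every deposited summit the log2 difference was -0.42 at Agbl4 and -0.15 at Sugct, and neither passed the test.

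Sik1 (chr17:31844248-31855804), a salt-inducible kinase that restrains CREB-dependent transcription, had 12, 12 and 12 top summits in GNPs, 12, 11 and 12 in hyperplasia and 7 in each tumor preparation. This log2 difference of -0.70 (SE 0.07) was small and even between preparations. Bnip2 (chr9:69989438-70011659) had 5, 3 and 3 in GNPs, 4, 5 and 5 in hyperplasia and 1 in each tumor preparation. Manea (chr4:26324506-26346918), a mannosidase of the Golgi, and Foxn4 (chr5:114254164-114274418), a forkhead factor of interneuron and retinal progenitors, had the same numbers: 2 in each GNP preparation, 4, 4 and 5 in hyperplasia and 2 in each tumor preparation. For these, hyperplasia stood above both other stages, so that tumors were at the GNP level. All 4 had adjusted p-values between 0.0355 and 0.0447 by limma. With the orders of ties, Agbl4, Sugct and Sik1 were called in 19 of 20, Bnip2 in 17, Foxn4 in 13, Khdrbs2 in 11 and Manea in 8. Over the other settings in which a gene was tested they were called less steadily: Khdrbs2 in 10 of 22, Sugct in 10 of 24, Agbl4 in 8 of 24, Sik1 in 5 of 23, Bnip2 in 4 of 21, Foxn4 in 3 of 21 and Manea in 1 of 21. Bnip2 was at -0.20 with all summits scaled to equal totals, where Manea turned to 0.41, and Sik1 was at -0.34 with scores of at least 5.

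**Figure D5:**
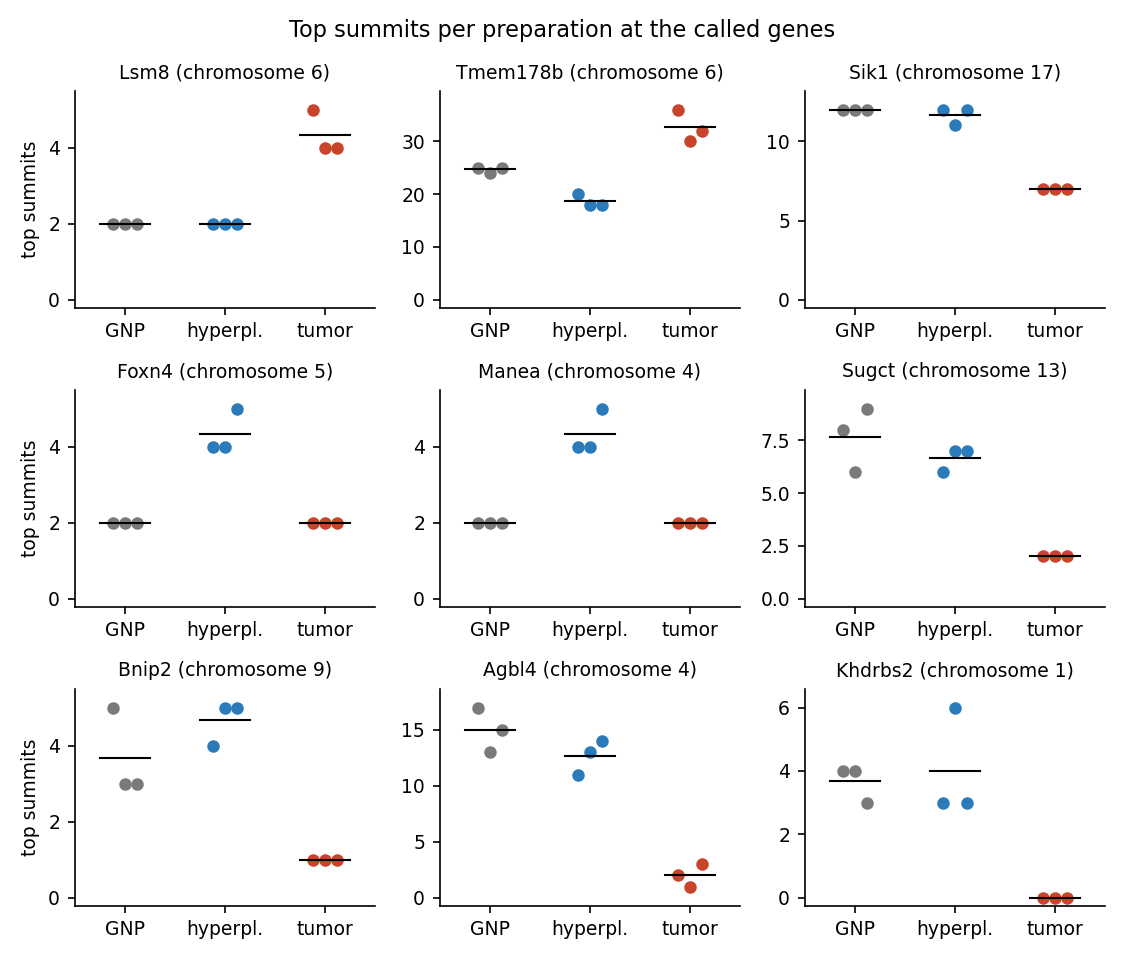
Top summits of NFIA and NFIB libraries together at the 9 called genes, each point 1 preparation and each bar the mean of 3. At Agbl4, Sugct, Bnip2, Sik1 and Khdrbs2 only the tumor points are low, whereas at Foxn4 and Manea only the hyperplasia points are high.

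Genes just outside the threshold are given as values. On chromosome 6, Cacna1c, a pore subunit of L-type calcium channels, had 20, 26 and 26 summits in hyperplasia and 39, 38 and 37 in tumors (log2 difference 0.66, adjusted p = 0.106 by limma). Cttnbp2, a regulator of dendritic spines, had 4, 2 and 2 against 7, 8 and 7 and holds 2 gained regions. Off chromosome 6, Cbfa2t3, a transcriptional corepressor, had 16, 17 and 18 against 22, 25 and 24. Akap12, a scaffold for protein kinase A, had 1, 2 and 1 against 4, 4 and 4. Lower values stood at Grip1, a glutamate receptor scaffold (17, 20 and 16 against 11, 11 and 12), and at Scd2, a fatty acid desaturase (10, 10 and 9 against 4, 4 and 6). Lrrc4c, a synaptic adhesion gene, had 5, 10 and 8 against 2, 2 and 1. Tumors did not overlap with hyperplasia in any of these 7 genes, which were named for low p-values or gained regions. Of all tested genes, 4.45% were higher and 3.73% lower in tumors without overlap. Cacna1c, Cbfa2t3 and Akap12 had GNP values of 26, 28 and 28, of 22, 20 and 21 and of 3, 4 and 4, so that at Cbfa2t3 and Akap12 the tumor numbers touched the GNP range.

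Genes with a long span held more of the low p-values. An unadjusted limma p under 0.05 was reached by 43 of 202 genes over 500 kb (21.3%), by 14.3% of those from 100 to 500 kb and by 10.4% of shorter ones. Off chromosome 6, 82 of the 185 longest genes were higher and 101 lower, with a median log2 difference of -0.04. Among all 8097 tested genes there, 3511 were higher and 3931 lower. The long genes named next were picked for low p-values or lost regions. Agbl4, Sugct, Khdrbs2 and Lrrc4c are among the lower ones, as is Nell1, a secreted growth regulator, with 5, 11 and 10 in hyperplasia and 3, 1 and 0 in tumors (adjusted p = 0.227 by limma). The 3 longest deposited lists, from NFIA preparation 2 of hyperplasia and NFIA preparations 1 and 2 of tumors, held over 100 weak summits each at Agbl4 (142, 131 and 143), and the other 9 held 3 to 28.

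Lists of 454 genes in 18 groups were used to describe known pathways. Of their 327 memberships tested, 0 were called by limma. Group values are therefore given as counts, beside all tested genes, of which 3883 (45.2%) had a higher value in tumors and 4018 a lower one, with a median of 0.00. Of all tested genes, 4.45% were higher and 3.73% lower in tumors without overlap of the preparations.

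Of the 15 Hedgehog pathway genes tested, 13 had a higher value in tumors and 2 a lower one, with a median log2 difference of 0.16, and none was called. An unadjusted limma p under 0.05 was reached by 2 of the higher and 1 of the lower genes. Mycn, the proliferation factor downstream of Hedgehog, had 8, 6 and 8 summits in hyperplasia and 10, 10 and 9 in tumors, without overlap (log2 difference 0.39, adjusted p = 0.385 by limma). Boc, a Hedgehog coreceptor, had 15, 13 and 17 against 17, 19 and 21. Gli3, the main repressor of the pathway, went the other way, with 8, 11 and 9 against 3, 4 and 4 (log2 difference -1.24, adjusted p = 0.27 by limma). Its GNP values of 10, 4 and 10 spanned both stages. A lost region lay at the gene end of Gli3 (chr13:15462991-15463276), hit in 5 hyperplasia, 1 GNP and 0 tumor libraries, and no tumor list held a summit there at any score. Gained regions lay inside Gli2 (chr1:119022402-119023212; 6 tumor, 1 hyperplasia, 5 GNP libraries) and at Ccnd2 on chromosome 6 (5, 1 and 0).

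The 4 NFI genes themselves all had higher values, with a median of 0.12. Nfib had 27, 25 and 27 against 37, 33 and 32 (log2 difference 0.36, adjusted p = 0.3 by limma). Nfia had 54, 49 and 56 against 54, 64 and 50, which overlapped. None of their 76 regions was gained or lost, beside 1.26% and 1.04% of all regions with a gene. At these shares 76 regions would hold few, so the absence is no result about these genes. Among genes of granule progenitor identity 14 of 20 were higher and 5 lower, with a median of 0.26. Meis1, a homeobox factor of granule cells, had 6, 6 and 8 in hyperplasia, 11, 12 and 14 in tumors and 11, 17 and 12 in GNPs. Atoh1, the factor that defines the progenitors and lies on chromosome 6, had 6, 7 and 5 against 8, 10 and 7, or 0.12 above the median of its chromosome. Granule neuron differentiation genes split into 9 higher and 12 lower, with a median of -0.06, and 0 of 21 reached an unadjusted limma p under 0.05.

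Neural stem and progenitor genes were higher in 13 of 20, with a median of 0.22. Sox1 had 4, 5 and 4 against 10, 7 and 7, and Sox5, on chromosome 6, had 22, 16 and 19 against 30, 35 and 28, both without overlap. Hmga2, a chromatin protein of early progenitors, was lower, with 9, 8 and 7 against 5, 6 and 4. Cell cycle and replication genes split into 11 higher and 12 lower around a median of 0.00. Of the medulloblastoma genes and chromatin regulators 10 were higher and 14 lower. There, Smarca4, the ATPase of the BAF remodelling complex, had 3, 3 and 2 in hyperplasia, 4, 7 and 6 in tumors and 5, 5 and 4 in GNPs, without overlap of the first pair, and holds a gained region (chr9:21638998-21639439; 6 tumor, 1 hyperplasia and 5 GNP libraries).

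In the BMP, TGF-beta and WNT pathways 19 of 33 genes were higher and 13 lower, with a median of 0.16, or 0.10 off chromosome 6. The WNT effectors Tcf7l1 and Tcf7l2 went apart. Tcf7l1, on chromosome 6, had 12, 11 and 10 against 16, 17 and 19, and Tcf7l2 had 16, 12 and 14 against 9, 8 and 7. Dkk3, a secreted Dickkopf-family protein, had 4, 2 and 3 against 7, 6 and 8, near the GNP values of 7, 9 and 8. A region inside Wnt7b (chr15:85569194-85569638) was gained by the stricter count, with 1 GNP library.

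Axon guidance and migration genes split evenly, 18 higher and 19 lower, with 6 gained and 5 lost of 367 regions (1.63% and 1.36%). Cxcr4, the chemokine receptor that holds granule progenitors at the cerebellar surface, had 16, 15 and 11 summits in hyperplasia, 8, 9 and 7 in tumors and 10, 10 and 9 in GNPs. Epha7, an ephrin receptor, had 5, 5 and 5 against 2, 3 and 3. Plxna1, a semaphorin coreceptor on chromosome 6, had 10, 6 and 7 against 11, 15 and 14 and holds 2 gained regions. Of the cadherins and protocadherins 18 of 27 were higher, with a median of 0.13 and 5 gained regions of 193 (2.59%) against 1 lost (0.518%), beside the 1.26% and 1.04% of all regions with a gene. Cdh7 had 2, 3 and 2 against 4, 4 and 4, and Cdh22 had 12, 9 and 5 against 15, 19 and 16.

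Glutamate and GABA receptor genes were higher in 17 of 25, with a median of 0.15. Grm3, a metabotropic receptor, had 2, 3 and 3 against 1, 1 and 1. Voltage-gated ion channel genes split 18 to 18. Kcnh1, a potassium channel, had 16, 19 and 16 against 12, 11 and 10, and Cacna2d3, an auxiliary calcium channel subunit, had 39, 28 and 47 against 24, 22 and 26, with GNP values of 34, 34 and 34. These members, named for low p-values, did not overlap between the stages, and their adjusted p-values lay above 0.05. Without overlap, 2 of the 25 receptor genes were higher in tumors and 1 lower. Of the 36 channel genes 1 was higher and 3 were lower, beside 4.45% and 3.73% of all tested genes.

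Markers of other cell types of the cerebellum were counted in the same way, since summits near a marker are not its expression and name no cell type. Astrocyte and Bergmann glia genes summed to 59 to 70 summits in hyperplasia and 49 to 70 in tumors, and 4 of 9 tested were higher; Aqp4 and S100b had no top summit. Oligodendrocyte genes summed to 42 to 57 and 44 to 48. Microglia and macrophage genes summed to 12 to 20 and 14 to 17, with Aif1 and Trem2 at 0. The vascular and meningeal list was higher in 5 of its 5 tested genes and summed to 24 to 32 in hyperplasia and 35 to 39 in tumors, without overlap, with GNPs at 29 to 40 and with Cldn5, Rgs5 and Vtn at 0. Purkinje cell and interneuron genes summed to 60 to 65 and 61 to 74, with Pcp2 at 0. Genes of non-neural tissues, of which 1 was tested, summed to 8 to 14 and 5 to 6, with Myh6, Sftpc and Umod at 0. That list too had no overlap, with tumors lower. The part of the vascular and non-neural differences in other results was not tested.

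The genes with the most gained regions were Creb5 and Atg7 on chromosome 6 and Cavin2 on chromosome 1, with 3 each. Creb5, a CREB-family factor, had 20, 22 and 15 summits in hyperplasia and 36, 34 and 26 in tumors, and Cavin2, a caveolar coat protein, had 8, 7 and 4 against 11, 13 and 11 and 15, 8 and 11 in GNPs. In all, 442 genes held a gained region and 417 of them only 1. For lost regions 366 of 377 genes held only 1. Agbl4 held 3 and the next, such as Nell1 and Slc35f1, held 2.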

How the data were processed

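NFIA and NFIB were mapped by CUT&Tag. Bowtie2 and MACS2 are named, without versions, and mm10 is the build, per the submitters' processing notes. The deposited lists give each summit as 1 base with a score, which MACS2 writes as a −log10 p-value or q-value, taken here as −log10 p; the lowest deposited score was 2.00. Scores served only to rank summits within a library. Read depth is not given, so the precision of a count rests on the preparations.

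In every library the top 30000 summits on autosomes were kept by score, with tied scores ordered at random. Summits were assigned to the nearest of 20665 protein-coding spans (RefSeq, GRCm38.p6) within 100 kb. limma 3.58.1 in R 4.3.3 (trend, empirical Bayes) was fitted to log2(summits + 0.5) over 9 preparations of 3 stages, with Benjamini-Hochberg adjustment, and was tested on simulated data. Single values were compared by exact two-sided permutation over preparations with SciPy 1.17.1. Alternatives changed the ranking, ties, pseudocount, filter, distance, widening, targets and preparations. Named genes were the called ones, those with the lowest p-values otherwise, members of the 18 lists with the lowest p-values and genes with the most called regions; named regions were those with the best rank of their weakest summit, and others were picked after their values were seen. The members and lists were chosen with earlier results of these data known. Sex chromosomes were left out of the comparisons. Some members of the lists are not reported here.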

Additional observations from a re-analysis of the deposited data

Results flagged for a closer look

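The second NFIA library of hyperplasia stood apart from the other 5 hyperplasia libraries in 3 measures. It had 39.3% of its top summits between genes, against 32.9% to 34.6%. A top summit lay in 40.5% of the regions, against 57.9% to 59.0%. It hit 287 of the lost regions, against 386 to 428. In each case its gap to the nearest library, over the range of the group, was above Dixon's 95% critical value for 6 samples, at 0.731, 0.941 and 0.702. In all, 18 groups over 9 measures were examined, and chance alone marks about 1 group in 20.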

How the results depend on the processing

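The number of genes called by limma moved most. It was 9 in all and 3 off chromosome 6. Both counts were 0 with another order of ties (967 genes at an unadjusted p under 0.05), 1 with list length as a covariate and 5 with tumor and hyperplasia preparations only. They were 5 and 0 both with every summit scaled to equal totals and with ties weighted, 3 and 0 with a pseudocount of 2, 38 and 36 with no filter, 25 and 8 with a filter at a mean of 4 summits, 28 and 15 with the preparation as a random block, and 15 and 14 with NFIB libraries only. Scores of at least 5 gave 2 in all, and equal chromosome shares gave 1. Off chromosome 6 the count was 6 with 15000 summits, 6 inside genes only, 8 with NFIA libraries only and 1 when ranked without chromosome 6. Leaving out each preparation gave 0 to 8 in all and 0 to 4 off chromosome 6; the 0 was without hyperplasia preparation 3 (815 genes at an unadjusted p under 0.05). With every summit scaled to equal totals, Khdrbs2 turned to 0.047 and Manea to 0.41.

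Strict calling gave 43 gained and 27 lost regions (33 and 27 off chromosome 6), 15000 summits gave 297 lost, all summits 990 lost (949 off chromosome 6), and leaving out the second NFIA library of hyperplasia 935 lost (918). Leaving out that library or a preparation also loosens the call in its stage. Each preparation left out gave 884 to 1521 gained and 825 to 1531 lost regions, or 746 to 1329 and 807 to 1495 off chromosome 6. The share hit by at least 5 GNP libraries was 16.5% of gained and 20.2% of lost regions with all summits, 44.4% of lost regions under the strict call and 20.4% of them when that NFIA library was left out; leaving out preparations gave 17.1% to 33.3% and 16.1% to 39.5%. The inside-gene difference was -0.73 with all summits, the between-gene difference was 3.32 with all summits and ran from -0.5628 to 1.0906 over left-out preparations and the log2 list length difference from -0.0322, without hyperplasia preparation 3, to 0.742. Apart from these constructions the cause was not tested. No paired analysis was possible because the hyperplasia and tumor preparations share only 1 number in the labels and no date. Unknown depth limits all counts: a missing summit may lie under the list's threshold.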

Other observations

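The X chromosome, left out of the comparisons, held 1.31% to 2.21% of the deposited summits of hyperplasia libraries and 1.43% to 3.67% of those of tumor libraries. The highest shares, 3.67% and 2.84% in the first and second NFIA libraries of tumors and 2.21% in the second NFIA library of hyperplasia, stood in the 3 longest lists.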
